A study of Mus musculus with 8 samples.

Results

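The genes for the proteins of the cytosolic ribosome were described in single mouse neutrophils of blood (PB) and bone marrow (BM) after PBS or LPS. They were taken by name as the rows whose symbol starts with Rpl or Rps followed by a digit, plus Rpsa, Rplp0, Rplp1 and Rplp2. The rule gave 84 of the 10970 genes in the table, after 5 pseudogene names ending in -ps and 9 names of S6 kinases (Rps6k) were left out. Of the 84, 40 encode proteins of the large subunit, 30 proteins of the small subunit and 3 the P stalk. The other 11 are paralogs or genes that encode no ribosomal protein, namely Rpl3l, Rpl7l1, Rpl10l, Rpl22l1, Rpl32l, Rpl36al, Rpl37rt, Rpl39l, Rps4l, Rps27l and Rps19bp1.

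The study asked how LPS priming alters circulating neutrophils. Per the methods all mice were male, between 7 and 12 weeks of age and of C57BL/6J background, and donors received an intraperitoneal injection of PBS or of LPS at 0.5 mg/kg. The labels give 0 h for PBS and 4 h for LPS, whereas the methods state 4 h after either. An enrichment kit removed other cells, so the cells left are those it does not bind, and single cells were then picked by mouth pipette for SCRB-seq, which marks every captured molecule with a unique molecular identifier (UMI) so that amplified copies count once. Each of the 4 groups, PBS-primed PB, LPS-primed PB, PBS-primed BM and LPS-primed BM neutrophils, had 2 labelled samples of 83 to 92 cells, with 3240559 to 8361677 UMIs per sample. A further 710 cells of batch 6 carried a group and a plate but no sample, and they are given as values without a test. Nothing says that the 2 samples of a group came from separate mice, and every sample fills 1 plate. The p-values therefore measure the spread between these samples, which may be technical.

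A ribosome is built from ribosomal RNA and a fixed set of proteins, and the genes of these proteins are expressed together in most cells. Their mRNAs typically begin with a run of pyrimidines, the 5′ terminal oligopyrimidine (TOP) tract, through which mTOR signalling and the RNA-binding protein Larp1 set their translation. Ribosome production is high in dividing myeloid precursors and declines as neutrophils mature.

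The pyrimidine run is a feature that the name rule did not use. RefSeq starts (build GRCm38.p6) matched 64 of the 84 members by symbol. A run of at least 8 consecutive C or T on the gene's strand, between 20 bases before and 40 bases after an annotated start, was present in 42 of the 64 (65.6%). The same search found it in 24.7% of all 27025 genes of that table and in 25.2% of the 6747 genes that were tested here and had a start there. This search also counts runs before or away from the start. A C within 2 bases of the start, followed by at least 4 C or T, was present in 20 of the 64 (31.25%). It was present in 10.6% of all genes of that table and in 12.6% of those tested genes. The windows below are shown because they belong to the member with the highest level (Rps9), to members whose values are described below and to Rps6, the substrate of the S6 kinases. Each holds 15 bases before the annotated start and 15 from it on, 5′ to 3′. Capitals mark the longest C or T run of the first search where at least 5 of its bases lie in the window. Rpl11, Rpl41 and Rpsa have none marked. Of the others, Rpl13a, Rplp2 and Rps6 have such a C at the start, and Rps9 and Rpl31 do not. The longest run of Rpl11 begins 13 bases after the start and that of Rpsa 20 bases after it, and that of Rpl41 has 3 bases.
Rps9 (chr7:3704026-3704055, plus strand): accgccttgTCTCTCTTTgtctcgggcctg
Rpl13a (chr7:45128731-45128760, minus strand): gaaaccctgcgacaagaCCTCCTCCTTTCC
Rpl11 (chr4:136053379-136053408, minus strand): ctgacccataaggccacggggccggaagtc
Rplp2 (chr7:141447636-141447665, plus strand): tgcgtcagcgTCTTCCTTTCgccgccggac
Rpl31 (chr1:39367836-39367865, plus strand): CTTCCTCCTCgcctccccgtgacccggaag
Rpl41 (chr10:128549154-128549183, minus strand): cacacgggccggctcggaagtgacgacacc
Rps6 (chr4:86857353-86857382, minus strand): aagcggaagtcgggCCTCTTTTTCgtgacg
Rpsa (chr9:120127751-120127780, plus strand): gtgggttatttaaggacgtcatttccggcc
These runs describe annotated starts and not the transcripts of these cells, whose 5′ ends SCRB-seq does not read.

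PBS-primed PB neutrophils gave the largest share of their UMIs to ribosomal protein genes. That share was 2.23% and 2.57% in their samples, and LPS-primed PB samples had 0.994% and 0.862%. PBS-primed BM samples had 1.11% and 1.26%, and LPS-primed BM samples 1.09% and 0.932%. Both PBS-primed PB samples lay far above every other sample, the PBS-primed BM samples lay just above those of both LPS-primed groups, and the LPS-primed groups overlapped. The mean of PBS-primed PB neutrophils, 2.40% ± 0.243 (SD, n = 2), was 2.59 times that of LPS-primed PB neutrophils, 0.928% ± 0.0929 (SD, n = 2), and 2.03 times that of PBS-primed BM neutrophils, 1.18% ± 0.107 (SD, n = 2). LPS-primed BM neutrophils had 1.01% ± 0.112 (SD, n = 2). The Wilson 95% interval of a share reached at most 0.0172 percentage points to either side and covers counting error only. The differences to PBS-primed PB neutrophils were larger than the spread between samples. No test was run on the shares, since the members were chosen with results of these data known.

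**Figure D1:**
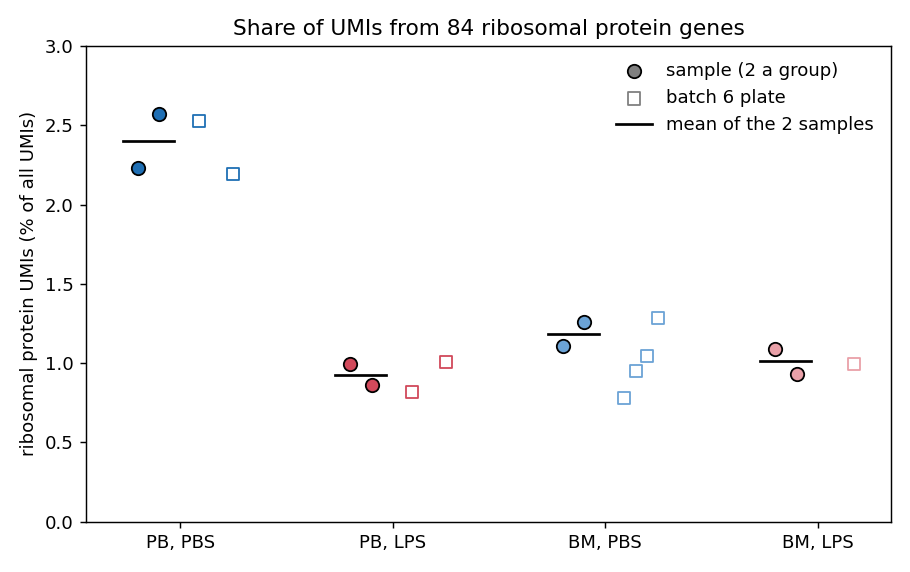
Share of all UMIs from the 84 ribosomal protein genes, in percent, for each group; filled circles are labelled samples, bars their mean, and open squares the plates of batch 6. PBS-primed PB samples and plates sit between 2.19% and 2.57%, and all other samples and plates at or below 1.29%.

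The plates of batch 6 also had PBS-primed PB neutrophils on top, with 2.53% and 2.19%. Their LPS-primed PB plates had 0.820% and 1.01%, the PBS-primed BM plates 0.780%, 0.947%, 1.05% and 1.29%, and the LPS-primed BM plate 0.992%, which lay inside the range of the PBS-primed BM plates. The small gap between PBS-primed and LPS-primed BM samples was thus not seen in batch 6. Among single members, 81 of the 82 tested below had a lower level in LPS-primed than in PBS-primed PB neutrophils of batch 6, as had 69.2% of all tested genes.

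Both subunits took part. Genes of the large subunit, P stalk included, held 1.18% and 1.45% of UMIs in PBS-primed PB samples against 0.488% and 0.457% after LPS. Small subunit genes held 1.02% and 1.08% against 0.495% and 0.399%. In neither subunit did the groups overlap. Of the UMIs of the 73 genes without the paralogs, the small subunit gave 46.5% and 42.6% in PBS-primed PB samples and 46.1% to 50.3% in the 6 others.

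The difference was also present in the middle of the distribution over cells. The median cell of the PBS-primed PB samples gave 1.69% and 1.91% of its UMIs to these genes, and after LPS 1.05% and 0.902%. The median BM cell gave 0.95% and 1.07% after PBS and 0.964% and 0.882% after LPS. With every cell thinned to 5000 UMIs, a median of 19 and 20 members had a UMI in PBS-primed PB cells, 15 and 12 in LPS-primed PB cells and 12 to 15.5 in BM cells. Without thinning these medians were 46 and 42, 35 and 32, and 26 to 39, and both ways the PBS-primed PB samples were highest. This was not so on the plates of batch 6. Thinned, their medians were 23.5 and 19 in PBS-primed PB, 16 and 13 in LPS-primed PB and 11 to 19 in BM cells. Without thinning they were 52.5 and 43, 47 and 52, and 33 to 48, and the groups overlapped.

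**Figure D2:**
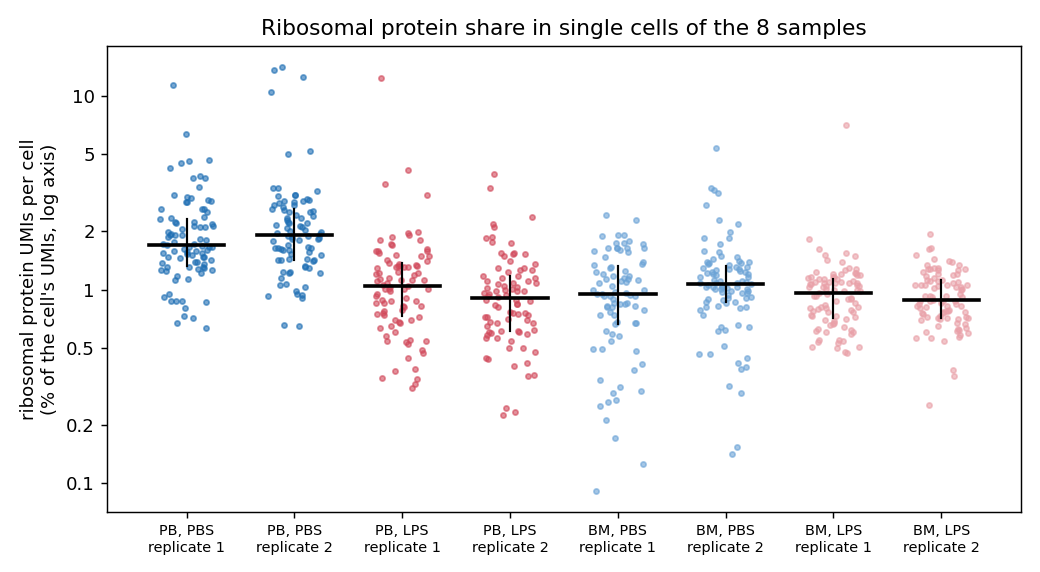
Share of each cell's UMIs from ribosomal protein genes, in percent on a log axis, by labelled sample; points are cells, the thick bar is the median and the thin line spans the quartiles. PBS-primed PB samples have medians of 1.69% and 1.91%, above those of the 6 other samples.

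Markers of other cells moved with this difference. Neutrophil markers (12 of 12 genes, none at 0) took 14.6% to 15.5% of UMIs in PBS-primed PB samples, 29.0% to 32% in LPS-primed PB samples and 35.1% to 41.0% in BM samples. Markers of immature neutrophils (11 of 12) summed to 93.0 to 173 CPM (UMI counts scaled so that every sample has the same total) in PBS-primed PB samples, 6151 to 7898 CPM in LPS-primed PB samples and at least 23828 CPM in BM samples. Of this list 5 genes were at 0 in PBS-primed PB, 4 and 5 in LPS-primed PB and 1 to 4 in BM samples. Elane or Mpo was at 0 in every sample, and Camp and Ltf are in the neutrophil list too. T cell markers (11 of 12) summed to 367 to 696 CPM in PBS-primed PB samples and to at most 42.9 CPM elsewhere, where Cd3e was at 0. B cell markers (8 of 10) summed to 111 to 143 CPM there and at most 1.32 CPM elsewhere. NK cell markers (7 of 8, Ncr1 at 0 in every sample) reached 82.4 to 238 CPM against at most 0.340 CPM. Platelet markers (6 of 7) reached 310 to 498 CPM in PBS-primed PB, 73.6 to 129 CPM in LPS-primed PB and at most 1.16 CPM in BM. In batch 6 PBS-primed PB plates were highest in these 4 lists too, but 1 LPS-primed PB plate had 108 CPM of B cell markers, near the 124 and 234 CPM of the PBS-primed PB plates. Genes of hepatocytes (10 of 10) summed to 1960 to 3042 CPM in PBS-primed PB, 1100 to 1238 CPM in LPS-primed PB and 56.7 to 126 CPM in BM samples. On the plates of batch 6 they summed to 62.9 to 167 CPM in PBS-primed PB and 152 to 159 CPM in LPS-primed PB, and there the groups overlapped. As a sum, monocyte markers (9 of 10) ran the other way. They had 304 to 642 CPM in PBS-primed PB, 1116 to 1287 CPM in LPS-primed PB and 920 to 1066 CPM in BM samples. However, Ccr2, Cx3cr1, Ms4a6c, F13a1 and Ear2 of this list were at 0 in both LPS-primed PB samples. PBS-primed PB sample 1 had only Cx3cr1 and Ear2 at 0, and sample 2 had all of these but Ms4a6c at 0. In batch 6 the list summed to 835 to 1056 CPM in PBS-primed PB and 1672 to 1755 CPM in LPS-primed PB. There the PBS-primed PB plates lay within the 698 to 1186 CPM of the PBS-primed BM plates.

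Cells with 10 or more UMIs of 34 such T, B, NK, platelet and erythroid markers numbered 25 and 17 in PBS-primed PB samples, 10 and 3 in LPS-primed PB samples and 3 to 6 in BM samples. Without them the share of ribosomal protein UMIs was 1.74% and 1.86% in PBS-primed PB, 1.0% and 0.865% in LPS-primed PB and 0.943% to 1.23% in BM samples. PBS-primed PB samples were still highest, at 1.93 times the mean after LPS. In batch 6 such cells were 70 of 88 and 42 of 84 on the PBS-primed PB plates, and without them these plates had 1.68% and 2.41%. At least 1 UMI of these markers was present in 79 and 74 cells of PBS-primed PB samples. It was present in 45 and 24 cells of LPS-primed PB and 21 to 25 of BM samples. Without all these cells the shares were 1.61% and 1.88%, 1.14% and 0.855%, and 0.958% to 1.27% in that order. In batch 6, 1 PBS-primed PB plate had such UMIs in all 88 cells. Marker-carrying cells below are those with 10 or more. The median spike-in ratio of the authors' cell annotation was 0.633 and 0.664 in PBS-primed PB samples and 0.416 to 0.520 in the others. Fewer cells of a type and less RNA per cell cannot be told apart in summed samples, and what part the spike-in ratio, hepatocyte genes and cell maturity have in the remaining difference was not tested.

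Single genes were tested in 1 edgeR quasi-likelihood fit to 8478 genes, on UMIs summed over the cells of each sample. Of the 84 members 82 were tested, all but Rpl39l and Rpl32l, which had too few UMIs. A gene was called at an adjusted p under 0.05 over all genes. The scale decides how a gene is read here. TMM, the default, centres the bulk of genes, with factors of 1.35 and 1.37 for PBS-primed PB and 0.748 and 0.694 for LPS-primed PB samples, while library size alone reads each gene as a share of UMIs.

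LPS against PBS in PB neutrophils gave lower values for most members. In CPM, both LPS-primed samples lay below both PBS-primed samples for 74 of 82 members, against 41.5% of all tested genes, and above them for 0, against 11.4%. The median log2 fold change of the members was -0.80 under TMM, with -0.11 over all genes, and -1.72 under library size alone, with -1.02 over all. Without LPS-primed PB sample 1 the TMM medians were -0.91 and -0.45, and without sample 2 they were -0.66 and -0.28. Under TMM edgeR called 0 members, against 3.47% of all genes called higher and 0.472% called lower. At an unadjusted p under 0.05 it gave 21 members lower, against 6.69% of all genes, and 0 higher, against 10.1%. DESeq2 called 10 members lower, against 5.04% of all genes, and 0 higher, against 7.31%. Limma with voom called 0 members, against 0.519% of all genes lower and 3.13% higher. Under library size alone 26 members fell, against 3.16% of all genes, and 0 rose, against 1.65%. Over all genes this scaling gave 140 higher and 268 lower calls in place of 294 higher and 40 lower.

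The 26 members that fell under library size alone were 11 of the large subunit, 14 of the small subunit and Rplp1 of the P stalk. Rpl11, which joins the ribosome with the small 5S RNA and can bind Mdm2, had 367 and 482 CPM after PBS and 74.2 and 85.6 CPM after LPS. The groups did not overlap. Its log2 fold change was -2.41 (SE 0.37, adjusted p = 0.00473, edgeR) under library size alone and -1.49 (SE 0.37, adjusted p = 0.0529) under TMM. In batch 6 it had 332 CPM after PBS and 74.3 CPM after LPS.

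Rpl13a, also known from a complex that silences inflammatory mRNAs, had 408 and 603 CPM after PBS and 121 and 88.9 CPM after LPS. Both LPS-primed samples were low, with a log2 fold change of -2.27 (SE 0.35, adjusted p = 0.00531, edgeR) under library size alone and -1.36 (SE 0.35, adjusted p = 0.0588) under TMM. In batch 6 Rpl13a had 363 CPM after PBS and 162 CPM after LPS, a smaller gap. In the mm9 annotation it overlaps Flt3l on the same strand. Rps19, a gene often mutated in Diamond-Blackfan anaemia, had 240 and 590 CPM after PBS and 53.9 and 67.3 CPM after LPS. The PBS-primed samples differed from each other more than the LPS-primed ones, without overlap between the groups. Its log2 fold change was -2.78 (SE 0.49, adjusted p = 0.0103, edgeR) under library size alone and -1.85 (SE 0.49, adjusted p = 0.0655) under TMM. Batch 6 had a smaller gap for Rps19, with 278 CPM after PBS and 151 CPM after LPS.

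Rps14, a small subunit protein needed to process its RNA, had 915 and 1135 CPM after PBS and 334 and 241 CPM after LPS. Again the groups did not overlap. Rps14 fell by 1.84 (SE 0.28, adjusted p = 0.00481, edgeR) on the log2 scale under library size alone and had -0.93 (SE 0.28, adjusted p = 0.103) under TMM. Here too the gap was smaller in batch 6, with 503 CPM after PBS and 254 CPM after LPS.

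Among members that reached 100 CPM on average in either group, the lowest TMM values belonged to Rpl12 (-3.41), Rpsa (-2.67), Rpl3 (-2.39) and Rps28 (-1.99). None of these passed under TMM (edgeR adjusted p = 0.150 to 0.395). Under library size alone Rpsa (-3.56, adjusted p = 0.0452) and Rps28 (-2.93, adjusted p = 0.0347) fell, and DESeq2 called both (0.0126 and 0.0345), whereas limma called neither (0.286 and 0.159). Rpsa, which is also known as a laminin receptor, had 149 and 124 CPM after PBS against 17 and 6.12 CPM after LPS, with no overlap. Its batch 6 values were 255 CPM after PBS and 73.8 CPM after LPS. Rpl12, of the stalk base, had 181 and 38.0 CPM after PBS and 6.09 and 4.93 CPM after LPS, so 1 sample carried most of it. Rpl12 and Rps28 overlap another gene on the opposite strand, and the strand setting of the counting is not given.

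Among the same members, the highest TMM value belonged to Rps20, of the small subunit head, with 53.7 and 138 CPM after PBS and 159 and 82.6 CPM after LPS. The groups overlapped, and its log2 fold change of 1.24 (SE 0.73, adjusted p = 0.421, edgeR) did not pass. In batch 6 the order was the opposite, with 262 CPM after PBS and 97.2 CPM after LPS. The 8 members whose groups overlapped were Rpl7, Rpl10l, Rpl18, Rps4l, Rps10, Rps12, Rps19bp1 and Rps20. Without the marker-carrying cells the median of 81 members was -0.34 under TMM, with -0.07 over all genes, and edgeR called 0, against 0.463% of all genes called lower and 3.21% called higher, with 3 lower and 1 higher at an unadjusted p under 0.05. Those counts are smaller parts of the 81 than the 6.07% lower and 9.79% higher among all genes. Under library size alone 4 then fell, Rpl8, Rpl11 and Rps14 among them, against 2.23% of all genes, and 0 rose, against 1.56%.

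**Figure D3:**
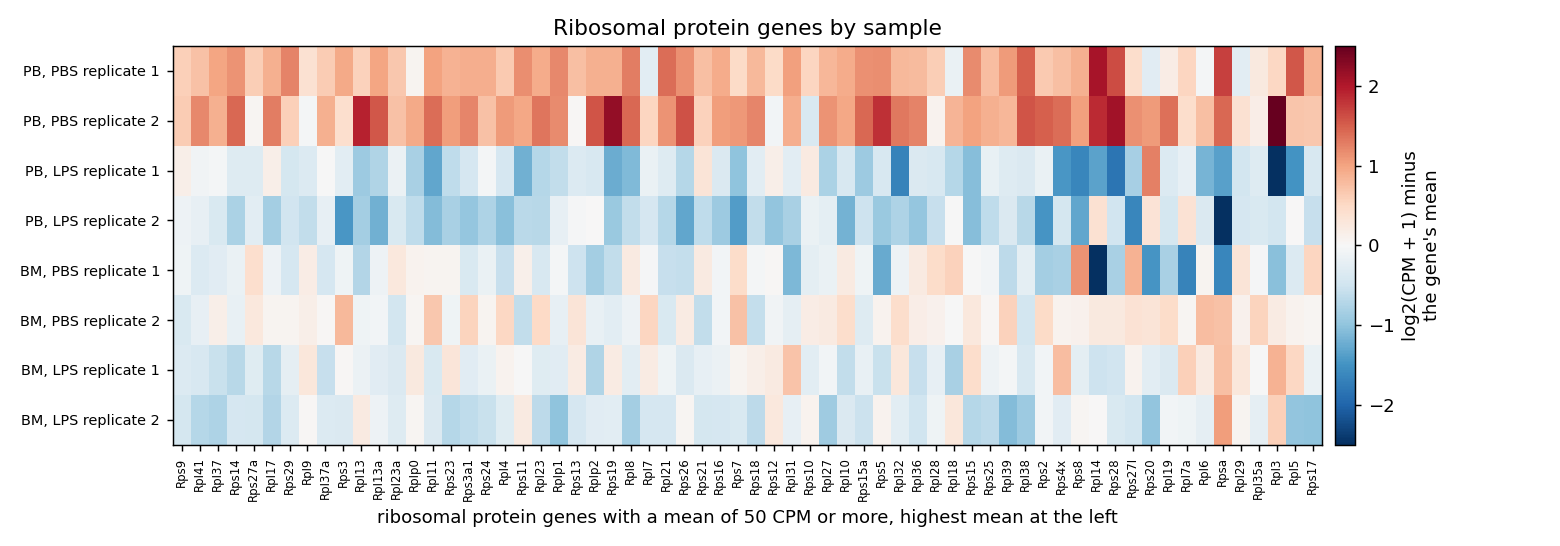
Log2(CPM + 1) of the ribosomal protein genes reported here with a mean of at least 50 CPM, minus the mean of that gene over the 8 samples, drawn as a colour for each gene (columns) and sample (rows), with red above and blue below that mean and values beyond the scale in its end colours. The PBS-primed PB samples lie above the gene mean for most genes, and Rps20 is among the exceptions.

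PBS-primed PB against PBS-primed BM neutrophils uses the same PBS-primed PB samples as the comparison above. Both PB samples lay above both BM samples for 61 of 82 members, against 34.6% of all tested genes, and below them for 0, against 13.3%. The members' median was 0.54 under TMM, with 0.15 over all genes, and 1.07 under library size alone, with 0.67 over all. Without PBS-primed BM sample 1 the TMM medians were 0.34 for members and 0.33 for all genes, with 42 of 82 members above the latter in place of 63. Under TMM edgeR called 0 members, against 1.18% of all genes called higher and 1.43% called lower. At an unadjusted p under 0.05 there were 15 higher, against 11.1% of all genes, and 0 lower, against 7.4%. DESeq2 called 6 members higher, against 5.99% of all genes, and 0 lower, against 5.12%. Limma with voom called 3 higher, against 2.81% of all genes, and 0 lower, against 1.56%. Under library size alone 8 rose, among them Rps14, Rpl41, Rpl21, Rps9, Rps19, Rpl22l1 and Rplp2, against 2.51% of all genes, and 0 fell, against 0.991%. In batch 6, 79 of 82 members had a higher level in PBS-primed PB neutrophils, as had 61.9% of all tested genes.

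Rps14 had 915 and 1135 CPM in PBS-primed PB samples against 372 and 366 CPM in PBS-primed BM samples. The groups were far apart. Its log2 fold change was 1.48 (SE 0.28, adjusted p = 0.0149, edgeR) under library size alone and 0.95 (SE 0.28, adjusted p = 0.117) under TMM. Rplp2, a stalk protein that helps recruit translation factors, had 275 and 444 CPM against 81.3 and 130 CPM. It rose by 1.77 (SE 0.43, adjusted p = 0.0495, edgeR) under library size alone and had 1.24 (SE 0.44, adjusted p = 0.209) under TMM.

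Rps27a, which encodes ubiquitin fused to a small subunit protein, differed from these, with 612 and 411 CPM in PBS-primed PB against 532 and 476 CPM in PBS-primed BM samples. Its groups overlapped, and its log2 fold change was -0.49 (SE 0.29, adjusted p = 0.390, edgeR) under TMM and 0.03 under library size alone. It overlaps another gene on the opposite strand. Without the marker-carrying cells the members' median for this comparison was 0.13 under TMM, with 0.06 over all genes, and edgeR called 0, against 1.21% of all genes called higher and 1.33% called lower, with 5 higher and 0 lower at an unadjusted p under 0.05. Those counts too are smaller parts than the 10.4% higher and 7.57% lower among all genes. Under library size alone 2 then rose, Rps9 among them, against 2.13% of all genes, and 0 fell, against 0.951%.

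LPS against PBS in BM neutrophils gave smaller differences, whose direction was not the same in batch 6. By group means 28 of 82 members were higher and 54 lower after LPS in the labelled samples, and 43 higher and 39 lower in batch 6, where 41.5% of all tested genes were higher and 56.4% lower. Both LPS-primed samples lay below both PBS-primed samples for 20 of 82 members, against 12.2% of all tested genes, and above them for 11, against 25%. The members' median was -0.36 under TMM, with 0.00 over all genes, and -0.16 under library size alone, with 0.19 over all. Without PBS-primed BM sample 1 the TMM medians were -0.54 and 0.07, and without sample 2 they were -0.19 and 0.23. Under TMM edgeR called 0 members, against 0.0236% of all genes called higher and 0.0472% called lower. At an unadjusted p under 0.05 there were 2 higher, against 5.08% of all genes, and 7 lower, against 2.98%. DESeq2 called 1 member higher, against 1.37% of all genes, and 1 lower, against 0.885%. Limma with voom called 0, against 0.0472% of all genes higher and 0.0708% lower, and edgeR with library size alone 0, against 0.0708% higher and 0.0472% lower.

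Rps27a had 532 and 476 CPM after PBS and 320 and 292 CPM after LPS in these BM samples. Its groups did not overlap, and the log2 fold change of -0.90 (SE 0.29, adjusted p = 0.518, edgeR) did not pass. In batch 6 the difference was small, with 255 CPM after PBS and 241 CPM after LPS. Rpl37, a zinc-binding protein of the large subunit, had 425 and 569 CPM after PBS and 351 and 299 CPM after LPS, without overlap (log2 fold change -0.80, SE 0.27, adjusted p = 0.568, edgeR), and 492 and 467 CPM in batch 6. Among members that reached 100 CPM in either group, the highest value was that of Rpl31, near the exit of the peptide tunnel. It had 54.6 and 103 CPM after PBS and 199 and 104 CPM after LPS. These groups did not overlap but came close, and its 0.74 (SE 0.49, adjusted p = 0.756, edgeR) did not pass. Rpl31 also overlaps a gene on the opposite strand.

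LPS-primed PB and LPS-primed BM neutrophils had similar shares of ribosomal protein UMIs. By group means 21 of 82 members were higher and 61 lower in PB in the labelled samples, and 33 higher and 49 lower in batch 6, where 38.8% of all tested genes were higher and 54.6% lower. In CPM, both PB samples lay below both BM samples for 35 of 82 members, against 37.9% of all tested genes, and above them for 7, against 16.4%. The members' median was 0.24 under TMM, with -0.07 over all genes, and -0.35 under library size alone, with -0.65 over all. Without LPS-primed BM sample 2 the TMM medians were 0.10 and 0.01. Among tested genes with a mean of at least 50 CPM the TMM medians were 0.32 for 65 members and 0.22 over all 2307. Under library size alone these were -0.26 and -0.35, so members were closer to genes of such levels than to all genes. Under TMM edgeR called 2 members higher in PB, Rps9 and Rpl3l, against 3.27% of all genes, and 0 lower, against 0.46%. At an unadjusted p under 0.05 there were 9 higher, against 11.1% of all genes, and 2 lower, against 6.45%. DESeq2 called 5 members higher, against 6.91% of all genes, and 2 lower, against 4.06%. Limma with voom called 4 higher, against 5.48% of all genes, and 0 lower, against 0.837%. Under library size alone edgeR called 1, Rpl3l, against 1.85% of all genes called higher, and 0 lower, against 1.25%.

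Rps9, a small subunit protein and the member of the highest level, was found in 1408 of all 1421 cells. Its level was 1752 and 1453 CPM in LPS-primed PB against 1255 and 1174 CPM in LPS-primed BM samples. The groups did not overlap. Its log2 fold change was 0.98 (SE 0.19, adjusted p = 0.0129, edgeR) under TMM, and 0.40 (SE 0.19, adjusted p = 0.270) under library size alone. The TMM call ended without PB_LPS replicate 1, BM_LPS replicate 1 or BM_LPS replicate 2 (edgeR adjusted p = 0.0652, 0.116 and 0.151) and held without the marker-carrying cells (adjusted p = 0.0234). In batch 6 Rps9 had 1421 CPM in PB and 1050 CPM in BM neutrophils after LPS.

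Rpl37 and Rpl41, both short basic proteins of the large subunit, stood next to Rps9 under TMM, with 1.04 (SE 0.27, adjusted p = 0.0621, edgeR) and 0.98 (SE 0.26, adjusted p = 0.0691). DESeq2 (adjusted p = 0.00577 and 0.0105) and limma (0.0337 and 0.0329) called both, and edgeR with library size alone called neither (0.342 and 0.402). Rpl37 had 500 and 396 CPM in LPS-primed PB against 351 and 299 CPM in LPS-primed BM samples, and Rpl41 had 542 and 503 CPM against 437 and 354 CPM. In both genes the groups did not overlap. In batch 6 both had the opposite order, with 311 against 467 CPM for Rpl37 and 398 against 498 CPM for Rpl41. Rpsa had 17 and 6.12 CPM in LPS-primed PB against 76.0 and 94.3 CPM in LPS-primed BM samples, without overlap, and its log2 fold change of -2.32 (SE 0.87, adjusted p = 0.212, edgeR) did not pass, while DESeq2 called it (adjusted p = 0.0480) and limma did not (0.307). Batch 6 had the opposite order, with 73.8 CPM in PB and 43.7 CPM in BM neutrophils.

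Rpl3l, a paralog of Rpl3 known from striated muscle, had 58 and 123 UMIs in LPS-primed PB samples and 1 UMI in each LPS-primed BM sample. Per UMI sequenced this was a ratio of 118 with an exact 95% counting interval of 32.1 to 980, and its adjusted p was 0.0270 (edgeR, TMM). The call ended without PB_LPS replicate 2, PB_PBS replicate 2, BM_LPS replicate 1 or BM_LPS replicate 2 (edgeR adjusted p = 0.0653, 0.0802, 0.233 and 0.236), and with cells thinned to 5000 UMIs (0.169). In batch 6 it had 8.63 CPM in PB and 10.2 CPM in BM neutrophils after LPS, so the difference was not seen there.

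**Figure D4:**
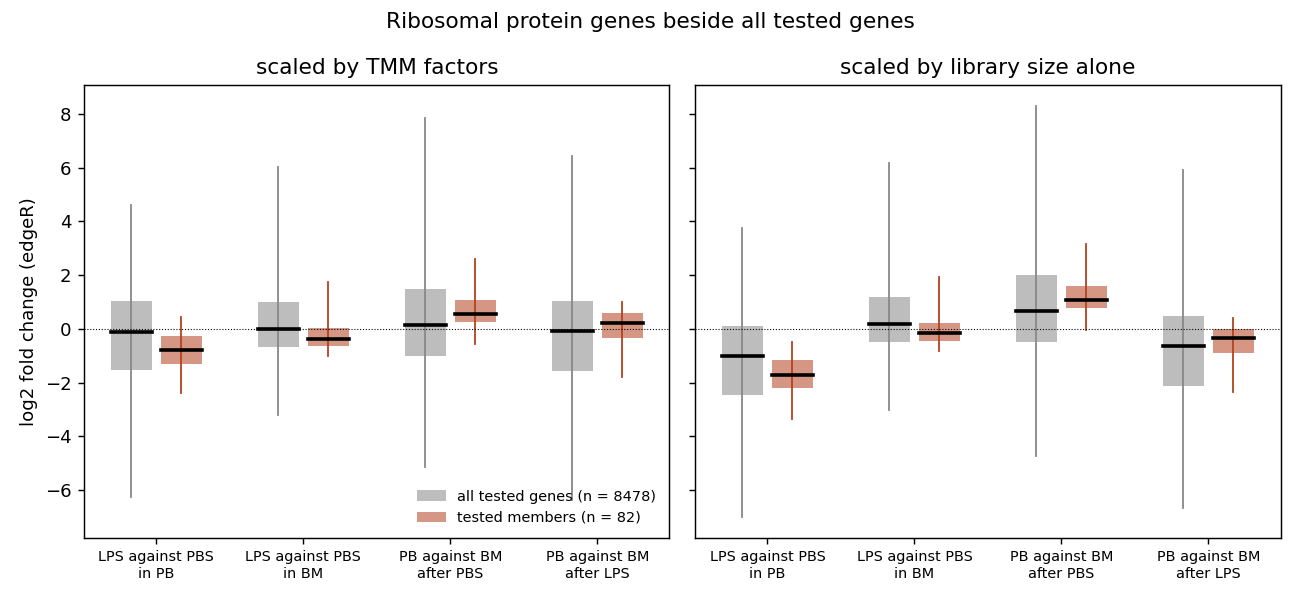
Log2 fold changes from edgeR for the 82 tested members and all 8478 tested genes in each comparison, under TMM and under library size alone; boxes span the quartiles, thick bars are medians and lines run from the 5% to the 95% point. The members' median for LPS against PBS in PB is -0.80 under TMM and -1.72 under library size alone, below that of all genes in both.

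The LPS effect in PB minus that in BM passed the edgeR test under TMM for 0 members. Under TMM edgeR called 1.45% of all genes higher and 0.0472% lower in this contrast. At an unadjusted p under 0.05 there were 3 members higher, against 7.27% of all genes, and 4 lower, against 6.09%. DESeq2 called 1 higher, against 3.62% of all genes, and 1 lower, against 2.12%. Limma with voom called 0, against 0.932% of all genes higher and 0.0708% lower, and edgeR with library size alone 0, against 0.531% higher and 0.224% lower. The members' median was -0.32 under TMM, with -0.17 over all genes, and -1.44 under library size alone, with -1.24 over all. The order of the TMM medians turned without PBS-primed BM sample 1 (-0.19 for members and -0.46 over all) or 2 (-0.44 and -0.68), and without LPS-primed PB sample 1 (-0.39 and -0.63) or 2 (-0.28 and -0.45). Among tested genes with a mean of at least 50 CPM the TMM medians were -0.15 for 65 members and 0.31 over all 2307. For LPS in PB these were -0.67 and 0.29, for PB against BM after PBS 0.43 and -0.04, and for LPS in BM -0.40 and -0.04. Rps27a had 1.16 (SE 0.41, adjusted p = 0.272, edgeR) and Rpsa -3.39 (SE 1.2, adjusted p = 0.276).

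The make-up of the ribosomal protein UMIs is independent of the scaling, and Rps9 stood out in it. This gene gave 10.8% and 9.51% of them in PBS-primed PB samples and 17.6% and 16.8% in LPS-primed PB samples. BM samples had 13.4% and 9.73% after PBS and 11.5% and 12.6% after LPS, so both LPS-primed PB samples lay above the 6 others. The plates of batch 6 had 8.54% and 9.62% in PBS-primed PB, 17.8% and 13.6% in LPS-primed PB, 9.54% to 12.4% in PBS-primed BM neutrophils and 10.6% on the LPS-primed BM plate, and the LPS-primed PB plates were again highest. The level of Rps9 was 2399 and 2446 CPM in PBS-primed PB samples, so after LPS it was lower in CPM but a larger part of the ribosomal protein UMIs.

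Rps27a had 2.74% and 1.60% in PBS-primed PB and 3.20% and 3.83% in LPS-primed PB samples, without overlap. In batch 6 its plates had 1.30% and 1.40% against 2.01% and 1.23%, and there the groups overlapped.

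**Figure D5:**
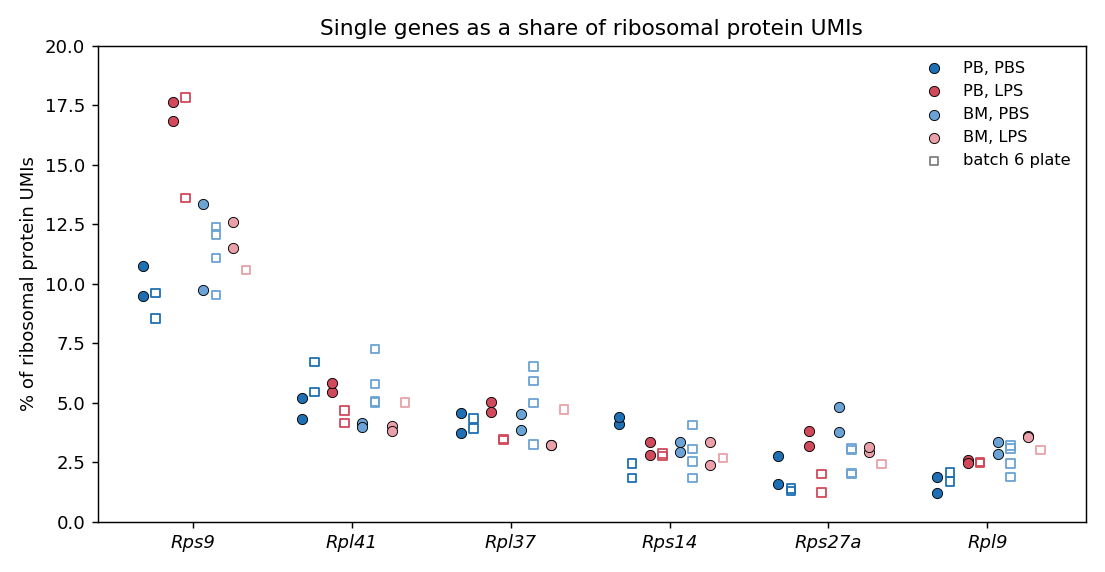
Share of all ribosomal protein UMIs from each of 6 abundant members, in percent; filled circles are labelled samples, open squares plates of batch 6 and colours the groups. Rps9 has 17.6% and 16.8% in LPS-primed PB samples, above its 6 other samples.

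Levels differed widely between members. The mean over the 8 samples ran from 6.75 CPM for Rps6 to 1647 CPM for Rps9 among the 73 genes without the paralogs, with a median of 137 CPM. The 10 highest, among them Rps9, Rpl41, Rpl37, Rps14, Rps27a, Rpl17, Rps29, Rpl9 and Rpl37a, gave 43.0% of the summed level. PBS-primed PB neutrophils had the highest group mean in CPM in 73 of the 82 tested members, as they had in 45.3% of all tested genes. Rps6 itself lay between 1.25 and 17 CPM in all samples. Only uniquely mapped reads were counted, and 107 genes with ribosomal protein names ending in -ps are in the mm9 annotation, so levels between members are uncertain. The part of reads lost in this way was not tested.

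Of the P stalk genes and Rps3, edgeR called 1 for LPS against PBS in PB, Rplp1, under library size alone and not under TMM, against 3.16% and 0.472% of all genes called lower. Rplp0 had 227 and 418 CPM in PBS-primed PB, 122 and 139 CPM in LPS-primed PB and 222 to 255 CPM in BM samples. Rplp1 had 352 and 350 CPM, 99.3 and 133 CPM, and 75.9 to 148 CPM in the same order. In neither did the PB groups overlap. Rplp0 had a log2 fold change of -0.39 (adjusted p = 0.664, edgeR) under TMM and -1.31 (adjusted p = 0.0727) under library size alone. Rplp1 fell by 1.60 (SE 0.39, adjusted p = 0.0443, edgeR) under library size alone, with -0.67 (adjusted p = 0.414) under TMM. Rplp2 had 113 and 149 CPM in LPS-primed PB, below its PBS-primed PB samples, with -0.53 (adjusted p = 0.583, edgeR) under TMM and -1.46 (adjusted p = 0.0809) under library size alone. Rps3, which also acts in DNA repair, had 459 and 321 CPM in PBS-primed PB and 198 and 86.7 CPM in LPS-primed PB samples, and its BM range of 187 to 418 CPM overlapped both. Its log2 fold change was -0.57 (adjusted p = 0.576, edgeR) under TMM and -1.46 (adjusted p = 0.103) under library size alone.

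The paralogs were uneven in level, and some were low. Rpl22l1, the paralog of Rpl22, had 68.8 and 48.4 CPM in PBS-primed PB and 32.6 and 13.3 CPM in LPS-primed PB samples. It had 0.430 and 0 CPM in PBS-primed BM and 29.2 and 5.23 CPM in LPS-primed BM samples. In batch 6, however, PBS-primed BM neutrophils had 37.5 CPM, so the near absence was not seen there. Its parent Rpl22 had 82.5 and 131 CPM in PBS-primed PB and 6.80 to 42.6 CPM in all other samples. Rps27l, a p53-induced relative of Rps27, had 90.4 and 149 CPM in PBS-primed PB, 37.2 and 20.9 CPM in LPS-primed PB and 48.4 to 122 CPM in BM samples. Rpl36al and Rpl36a encode nearly the same protein, and reads shared by such pairs may have been dropped.

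Related genes were described from lists. Fau, a ribosomal protein made as a fusion to a ubiquitin-like protein, and Rack1, a ribosome-bound scaffold, lie outside the name rule. Fau had 1166 and 1178 CPM in PBS-primed PB, 645 and 673 CPM in LPS-primed PB and 406 to 720 CPM in BM samples. Rack1 had 117 and 215 CPM, 23.0 and 42.1 CPM, and 61.7 to 113 CPM in the same order. In both genes the PB groups did not overlap, and neither passed under TMM for LPS against PBS in PB, with 0.08 (SE 0.26, adjusted p = 0.941, edgeR) for Fau and -1.42 (SE 0.56, adjusted p = 0.241) for Rack1. Other TOP mRNAs (19 genes tested, Rack1 included) summed to 2446 and 2762 CPM in PBS-primed PB, 1387 and 1098 CPM in LPS-primed PB and 1557 to 2007 CPM in BM samples. For LPS against PBS in PB their median was -1.31 under TMM, with -0.11 over all genes, and -2.22 under library size alone, with -1.02 over all. EdgeR called 0 under TMM and 3 lower under library size alone, against 3.16% of all genes. DESeq2 called 4 lower, against 5.04% of all genes, and limma 0. At an unadjusted p under 0.05 there were 5 lower and 1 higher, against 6.69% and 10.1% of all genes. Eef2, the factor that moves the ribosome along the mRNA, had 261 and 332 CPM after PBS and 66.4 and 30.1 CPM after LPS in PB. Pabpc1, which binds poly(A) tails, had 433 and 327 CPM against 511 and 295 CPM and overlapped.

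Ribosome biogenesis genes were low. The 41 of 49 listed that were present summed to 509 and 853 CPM in PBS-primed PB samples. They summed to 182 and 158 CPM in LPS-primed PB and 305 to 391 CPM in BM samples. Of these genes 27 were tested. For LPS against PBS in PB edgeR called 0 of them under either scaling, DESeq2 1 lower, against 5.04% of all genes, and limma 0, with 2 lower at an unadjusted p under 0.05, against 6.69% of all genes. Of 23 regulators of translation tested, edgeR called 1 lower in this comparison under TMM, against 0.472% of all genes, namely Eef2k, the kinase that inhibits Eef2. It had 194 and 20.4 CPM after PBS, so 1 sample carried most of it, and 0.156 and 0.340 CPM after LPS (adjusted p = 0.0416, edgeR). DESeq2 called it as well, and limma did not (adjusted p = 0.173). For this list there were 4 higher and 4 lower at an unadjusted p under 0.05, against 10.1% and 6.69% of all genes, and library size alone gave 2 lower, against 3.16%. DESeq2 called 2 higher and 3 lower, against 7.31% and 5.04%, and limma 0. Eif4ebp1, the repressor of translation that mTOR inactivates, had 547 and 543 CPM in PBS-primed PB and 220 and 250 CPM in LPS-primed PB samples. Those groups did not overlap, and its log2 fold change of -0.30 (SE 0.35, adjusted p = 0.737, edgeR) under TMM did not pass.

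In the other comparisons edgeR called 0 genes of these lists under TMM. Under library size alone it called 1 TOP mRNA lower in PB against BM after LPS, against 1.25% of all genes. It also called 1 regulator higher in PB against BM after PBS, against 2.51%. By unadjusted p under TMM, 4 of the 19 TOP mRNAs were lower in PB against BM after LPS, against 6.45% of all genes, and 4 for the difference of LPS effects, against 6.09%. DESeq2 called 3 and 1 of them lower there, against 4.06% and 2.12% of all genes, and limma 0. Of the 27 biogenesis genes, 5 were higher in PB against BM after PBS by unadjusted p, against 11.1% of all genes, and 3 after LPS in BM, against 5.08%. They gave 1 lower in PB against BM after LPS and 3 lower for the difference of LPS effects, against 6.45% and 6.09%. DESeq2 called Nop58, of the box C/D particles that modify ribosomal RNA, higher in PB against BM after PBS and lower for the difference, and limma called 0. The 23 regulators had 1 to 2 higher and 0 to 3 lower by unadjusted p, where the shares of all genes ran from 5.08% to 11.1% and from 2.98% to 7.4%, respectively. DESeq2 called 1 to 2 of them higher and 0 to 3 lower, against 1.37% to 6.91% and 0.885% to 5.12% of all genes. Limma called 0 to 1 higher and 0 to 2 lower, against 0.0472% to 5.48% and 0.0708% to 1.56%.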

How the data were processed

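SCRB-seq reads of 1421 cells had been trimmed with Cutadapt 1.15, aligned to mouse mm9 with STAR 2.6.0a, deduplicated by UMI and quantified with HTSeq 0.11.2 by the authors, who kept uniquely mapped reads. The gene annotation and strand setting are not given in the sources used here. The deposited values are UMI counts of 10970 genes, not normalized. The authors' cell annotation gives a spike-in ratio as a fraction whose denominator is not stated, used only as a median per sample. It also holds the authors' clusters, which were not used.

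The 711 cells whose names match a labelled sample were summed into 8 samples, with 94 well barcodes of which 68 occur in all 8, and the 710 cells of batch 6 were summed per plate or group. Genes with a UMI in at least 10 cells (9919) were filtered with filterByExpr and tested in 1 edgeR 4.0.16 quasi-likelihood model of 4 groups (R 4.3.3), two-sided, with Benjamini-Hochberg adjustment at 0.05. The common dispersion was 1.06. Alternatives were library size alone, other size factors, DESeq2 1.42.0, limma 3.58.1 with voom, other filters, thinning to 5000 UMIs, a replicate block and leaving out samples. Leaving out cells with other cell types' markers, other denominators and the batch 6 values were added after seeing the data. The fits were tested on simulated data, in which most calls by DESeq2 were of genes that had not been changed and most by edgeR and limma were of genes that had. Members and lists were chosen with earlier results of these data known. Rpl32l and Rpl37rt were counted as paralogs after the table was seen.

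Named members are those with fixed interest (Rplp0, Rplp1, Rplp2, Rpsa, Rps6, Rps27a, Rpl13a and Rps3), the 10 highest, those past the threshold, and those among the 10 largest rises or falls of a comparison that reach 100 CPM on the side where they are higher, and paralogs with their parents. Others were chosen after their values were seen. Some genes are not reported here.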

Additional observations from a re-analysis of the deposited data

Results flagged for a closer look

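For 8 of 82 members every LPS-primed sample lay below the PBS-primed samples in PB and above them in BM, in CPM. EdgeR under TMM and limma with voom called 0 members for the difference of LPS effects. DESeq2 called Rpl22l1, which is among the 8. The same pattern was present in 8.74% of all tested genes, close to the 9.76% that 8 of 82 gives. The LPS effect in PB minus that in BM (log2, edgeR with TMM) was -3.39 for Rpsa (adjusted p = 0.276), -2.07 for Rps19 (adjusted p = 0.235), -3.25 for Rpl3 (adjusted p = 0.396) and -1.34 for Rpl31 (adjusted p = 0.436). It was -1.60 for Rpl22 (adjusted p = 0.665), -4.0 for Rpl10a (adjusted p = 0.583), -3.69 for Rpl36al (adjusted p = 0.465) and -6.54 for Rpl22l1 (adjusted p = 0.250). The value of Rpl22l1 depends on the prior count, since PBS-primed BM samples held 3 and 0 of its UMIs. In batch 6 all 8 were lower after LPS in PB, and in BM 4 of them were higher (Rpl3, Rpl31, Rpl22 and Rpl10a). The other 4 were lower there, with 59.3 CPM after PBS and 43.7 CPM after LPS for Rpsa, 109 and 102 CPM for Rps19, 15.7 and 11.2 CPM for Rpl36al and 37.5 and 10.3 CPM for Rpl22l1.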

How the results depend on the processing

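The count of called members depended on tool and scaling. For LPS against PBS in PB it was 0 under TMM, 26 with library size alone, 10 with DESeq2, 2 with the size factors of DESeq2 in edgeR (against 0.578% of all genes lower), 1 with thinned cells (0.812%) and 4 without marker-carrying cells and with library size alone. After PBS, PB against BM gave 0, then 8 with library size alone, 6 with DESeq2, 3 with limma, 2 with thinned cells (against 2.40% of all genes higher) and 2 without those cells and with library size alone. After LPS, PB against BM gave 2, then 7 with DESeq2, 4 with limma and 1 each with thinned cells (against 5.10% of all genes higher), library size alone and the latter without those cells (1.74%). DESeq2 called 2 for LPS in BM and 2 for the difference of LPS effects, where edgeR called 0. The cause was not tested.

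The members' median log2 fold change for LPS in PB was -1.72 with library size alone, -0.34 without marker-carrying cells, -1.10 with both and -0.56 with thinned cells. For LPS in BM it was -0.16 with library size alone and -0.11 with both. For PB against BM after PBS it was 1.07 with library size alone and 0.13 without those cells. For PB against BM after LPS it reversed to -0.35 with library size alone and -0.38 with both, and was 0.43 with thinned cells. For the difference of LPS effects it was -1.44 with library size alone, 0.023 (reversed) without those cells and -0.91 with both.

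The difference in share for LPS in PB was -1.17 percentage points with thinned cells, -1.16 as the mean over cells, -2.07 outside the 100 most abundant other genes and -0.869 without marker-carrying cells. For LPS in BM it was -0.387 outside the neutrophil markers, -0.687 outside those 100 genes and 0.0319 (reversed) in batch 6. For PB against BM after PBS it was 0.883 outside the neutrophil markers, 0.630 without marker-carrying cells and 1.39 in batch 6. For PB against BM after LPS it was 0.162 with thinned cells and 0.159 as the mean over cells, against -0.0832 as reported. The difference of LPS effects was -1.04 in both of these settings, -1.11 outside the neutrophil markers, -0.715 without marker-carrying cells and -1.48 in batch 6.

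With single samples left out, for LPS in PB, LPS in BM, PB against BM after PBS, PB against BM after LPS and the difference of LPS effects in turn, called members ranged from 0 to 1, 0 to 0, 0 to 2, 0 to 3 and 0 to 0, medians from -0.92 to -0.66, -0.54 to -0.19, 0.34 to 0.87, 0.10 to 0.35 and -0.56 to -0.17, and shares from -1.65 to -1.30, -0.249 to -0.0908, 1.05 to 1.39, -0.162 to -0.0041 and -1.48 to -1.13. Rpl11 was called for LPS in PB without either PBS-primed BM sample and Rps19 without PBS-primed PB sample 1. Rpl22l1 was called for PB against BM after PBS without either LPS-primed PB sample. Rpl37 was called as well for PB against BM after LPS without either PBS-primed BM sample. A group left with 1 sample was assumed to vary like the others.

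Of 720 alternatives for 40 values of named members, 647 kept direction and call, 58 passed and 10 lost the threshold, and 5 reversed. Rps9 for LPS in PB had -0.60 with library size alone and -0.58 also without those cells. Rps27a had 0.0266 and 0.0940 in those settings for PB against BM after PBS, and -0.0359 in the latter for the difference of LPS effects.

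Same-numbered samples did not deviate together (r = -0.0271 to 0.00518 across genes). This cannot show whether same-numbered samples share a mouse or a run, which is not stated. With the replicate block, 1 member was called for LPS in PB (Rpl11, against 0.436% of all genes lower) and 1 for PB against BM after PBS (Rpl22l1, against 1.33% higher). With a common dispersion of 1.06 and 2 samples a group, moderate changes of single genes may not pass.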
